A study of Mus musculus with 27 samples.

Results

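Chemokines are small secreted proteins that steer white blood cells, and their receptors are membrane proteins on the surface of the cells they steer. The genes described here were all rows of the expression table whose symbol named a CC, CXC, CX3C or C chemokine or a receptor of that name (Ccl, Cxcl, Cx3cl, Xcl, Ccr, Cxcr, Cx3cr or Xcr followed by a number). Of the 36333 genes in the table, 55 matched, 37 of them ligands and 18 receptors. The 36 with a normalised value of 1 or more in at least 4 of the 27 samples were described, 26 ligands and 10 receptors, and the other 19 were only counted. The samples were livers, omental adipose tissues and skeletal muscles of *Mlx*KO mice, in which both alleles of *Mlx*, the gene of the shared partner of glucose-sensing transcription factors, had been flanked by loxP sites and excised body-wide at weaning. The mice were crosses of Mlx Flox/Flox with a line expressing a tamoxifen-activated Cre recombinase (cre/ERT2) from the ROSA26 locus in all cell types, and excision followed 5 daily injections of 75 mg per kg of tamoxifen. Every group described here carried that deletion and had that treatment. The study's supplement, however, reports more *Mlx* expression left in skeletal muscle than in liver or adipose tissue. In comparisons with muscle, the extent of excision cannot be told apart from the tissue. Each tissue had 4 samples at 5 months of age and 5 at 20 months. At 5 months the 3 tissues came from the same 4 mice, called A, B, C and D here in ascending order of the numbers in their labels, while the 20-month samples carried other numbers, which were 16, 17, 18, 19 and 74 for livers, 36 to 40 for omental adipose tissues and 56 to 60 for muscles. The labels did not tie those numbers to single mice, so p-values measured the spread between these samples. The titles of the older samples gave 20 months, and that age is used here. Their short names held X18, and the study's supplement lists mice with numbers ending alike at 18 months. Wild-type samples were not analysed here, and age cannot be told apart from time since the excision of *Mlx*.

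The chemokine system works by gradients. A ligand made at a site of injury or in a lymphoid organ is held on nearby matrix and vessel walls, and cells with the matching receptor crawl toward it. Inflammatory ligands such as Cxcl9, Cxcl10 and Ccl2 are switched on by interferon-gamma or NF-kB signalling and bring in T cells and monocytes, whereas homeostatic ligands such as Cxcl12, Cxcl13 and Ccl21a are made by stromal cells and place lymphocytes and stem cells. In liver, fat and muscle the ligands come from tissue macrophages, endothelium, fibroblasts and the parenchyma itself, while most receptor RNA comes from white blood cells.

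The deposited values were read counts per gene scaled by the authors, and 14384695 to 25673919 reads on genes were recovered from them per sample, so that 1 read was worth 0.0234 to 0.0806. The labelled tissues fitted their markers: 4 hepatocyte genes summed to 42128 to 146551 in liver, and 4 muscle fibre genes to 115183 to 149107 in muscle against 96.2 to 804 in adipose tissue, where 4 adipocyte genes summed to 3032 to 5675. *Mlx* itself was 29 ± 3.47 in liver at 5 months and 23.9 ± 3.79 at 20 months (mean ± SD, n = 4 and 5), 9.12 ± 1.26 and 10.6 ± 2.09 in adipose tissue, and 9.41 ± 1.89 and 10.3 ± 0.800 in muscle, a value over the whole gene that does not check the deletion. Some samples stood apart. Liver sample 74 had the highest value of its group for 13 of 19 tested members and a hepatocyte sum of 42128 against 77964 to 93545 in the other 4 livers of 20 months, and liver sample 16 had the lowest value for 15 of the 19. Adipose sample 37 had a macrophage sum of 3420 but a B cell sum of 21.4, the lowest of its group. In muscle, mouse B was highest in 10 of 18 tested members at 5 months and sample 59 in 11 of 18 at 20 months.

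The highest chemokine differed between tissues, although some of the leading ones were shared. Ccl6 and Ccl9 were among the 3 highest in liver and adipose tissue, and Cxcl12 in liver and muscle. Levels of different genes were compared as the normalised value per kilobase of exon, averaged over the 9 samples of a tissue. On that scale Cxcl12, the ligand of Cxcr4 that holds blood stem cells and lymphocytes in place, led in liver at 55.1, ahead of Ccl9 at 21.7 and Ccl6 at 9.71, a pair of macrophage ligands of Ccr1. In adipose tissue Ccl6 led at 164, followed by Ccl21a, the lymphatic ligand of Ccr7, at 71.3 and Ccl9 at 47.5, with Ccl8 at 46.9 next to it. The order below Ccl6 differed between ages there: at 5 months Ccl21a (94.3), Cxcl12 (57.95) and Ccl9 (30.6) followed it, and at 20 months Ccl9 (61.1), Ccl8 (61.0) and Ccl21a (53.0). In muscle the highest were Cxcl14, a ligand with no settled receptor, at 41.0, Cxcl12 at 17.9 and Ccl11, the eosinophil ligand eotaxin, at 14.3. Ccl21a is one of several near-identical gene copies, and 71.6% of its exon sequence, read in words of 50 bases, recurred elsewhere among annotated transcripts, so its reads may have been split between copies.

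**Figure D1:**
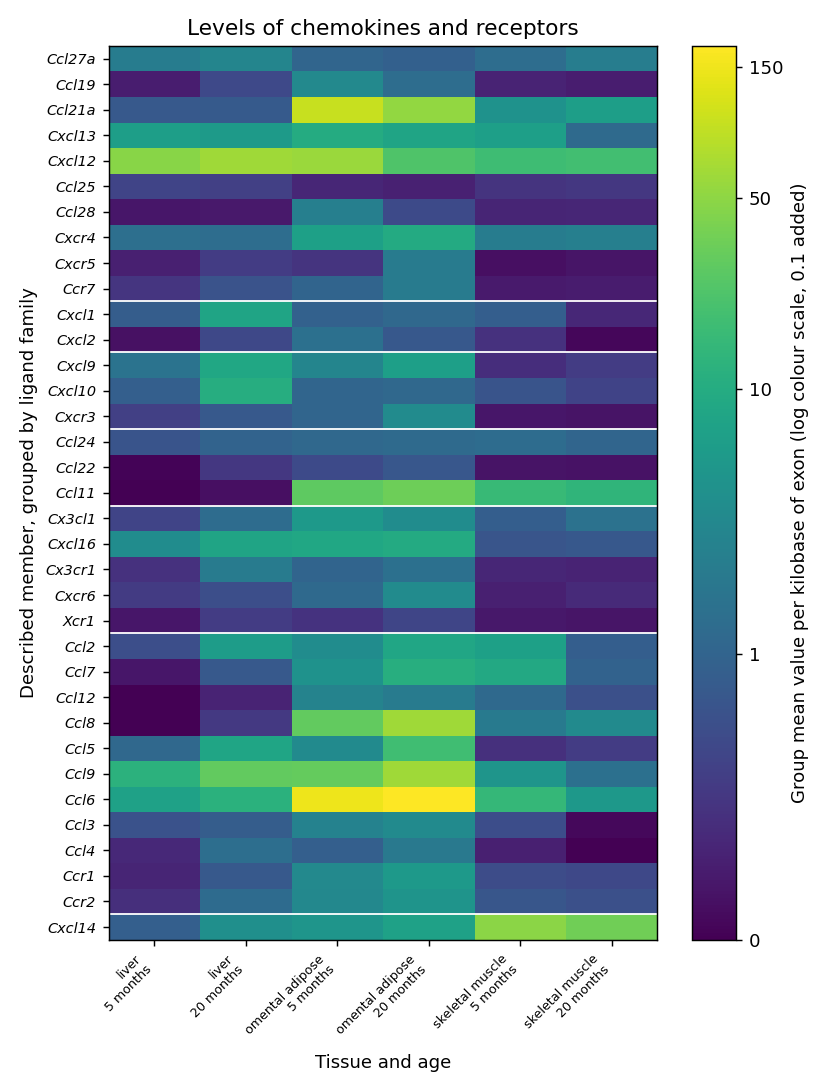
Mean normalised value per kilobase of exon (colour) of 35 of the 36 described chemokines and receptors (rows) in the 6 groups of tissue and age (columns, n = 4 at 5 months and 5 at 20 months). Cxcl12 is high in every column, Ccl6 and Ccl21a are highest in adipose tissue and Cxcl14 in muscle.

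Tissues were compared at 5 months, where the same 4 mice gave all 3. Of the 30 described members tested (limma over 14384 genes, Benjamini-Hochberg adjusted p under 0.05), 23 were higher in adipose tissue than in liver and 2 were lower, where 37.7% of all genes tested were higher in adipose tissue and 37.5% in liver. These counts are a description, since some members passed the filter through the tissue where they are high. Ccr7, Cxcr3 and Cxcr6 were at 1 or more in no liver or muscle of 5 months, and Cxcl2, Ccl3 and Ccl12 in 1 muscle and no liver. Against muscle, 21 members were higher in adipose tissue (40.4% of all genes) and 1, Cxcl14, in muscle (31.2%). Between liver and muscle the calls were mixed, with 9 members higher in liver (37% of all genes) and 12 in muscle (37.4%). With the mouse as a block the numbers of calls were 26, 22 and 21 for adipose tissue against liver, adipose tissue against muscle and liver against muscle. Per the labels, liver RNA was extracted with another kit than that of adipose tissue and muscle, whereas the study's methods name 1 kit for all samples. A difference in kit cannot be told apart from the tissue in comparisons with liver.

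The ligands Ccl6, Ccl21a and Cx3cl1 and the receptors Ccr2 and Ccr1 were each higher in adipose tissue than in liver or muscle. Ccl6 was 216, 203, 364 and 267 in the 4 adipose tissues of mice A, B, C and D, 10.2, 18.2, 10.4 and 12.8 in their livers and 21.6, 45.5, 16.8 and 20.1 in their muscles. The log2 difference was -4.24 (SE 0.29, adjusted p = 2.5e-08) for liver minus adipose tissue and 3.36 (SE 0.29, adjusted p = 3.3e-07) for adipose tissue minus muscle. Every adipose sample was above every liver and muscle. Ccl21a was 87.9, 42.9, 91.8 and 106 in adipose tissue, 0.446, 1.31, 0.214 and 0.480 in liver and 3.38, 4.19, 2.43 and 5.44 in muscle, and the 3 tissues did not overlap. Cx3cl1, the membrane-bound ligand fractalkine, was 21.8 ± 2.37 in adipose tissue, 3.28 ± 0.772 in muscle and 1.44 ± 0.334 in liver (mean ± SD, n = 4). Of the receptors, Ccr2, which brings monocytes out of the marrow, was 21.6 ± 9.18 in adipose tissue, 4.37 ± 1.27 in muscle and 1.20 ± 0.655 in liver, and Ccr1, a receptor of Ccl6 and Ccl9 on monocytes and neutrophils, was 9.23 ± 2.70, 1.35 ± 0.729 and 0.328 ± 0.154. For these 3 members every pair of tissues differed in the test. Macrophage markers were also highest in adipose tissue: their 8 genes summed to 693 to 1588 there, 182 to 294 in liver and 128 to 210 in muscle at 5 months. Their mean sum was 248 in liver and 170 in muscle, whereas the members of this paragraph were higher in muscle than in liver. The part of macrophages in the members' levels was not tested. In bulk tissue, more cells of a type and more RNA per cell cannot be told apart.

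A few members ran the other way. Cxcl14 was 90.1, 122, 71.5 and 67.9 in muscle against 6.16, 8.42, 10.7 and 10.7 in adipose tissue and 0.764, 0.655, 2.42 and 2.56 in liver. The log2 difference was -3.14 (SE 0.29, adjusted p = 6.0e-07) for adipose tissue minus muscle and -5.15 (SE 0.29, adjusted p = 2.3e-09) for liver minus muscle. Ccl25, a thymic and gut ligand of Ccr9, and Ccl27a, the skin ligand of Ccr10, were the 2 members higher in liver than in adipose tissue, at 2.67 ± 0.517 against 0.905 ± 0.237 and 5.20 ± 0.235 against 2.47 ± 0.569. Both overlap other genes (Ccl25 lies across Elavl1, and 45% of the sequence words of Ccl27a recurred elsewhere, with Il11ra1 overlapping it), so part of these values may belong to neighbours. Ccl11 was 20.7, 20.4, 15.1 and 10.2 in muscle and 26.0, 27.9, 32.2 and 34.3 in adipose tissue, and no read of it was found in any of the 4 livers of 5 months, which allows up to 0.240, the value of 3 reads. Cxcl12 was 429, 296, 419 and 395 in liver and 640, 387, 594 and 274 in adipose tissue, which overlapped, and 136, 154, 130 and 142 in muscle, which lay below both.

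Between 5 and 20 months some chemokines and receptors rose in liver. Of the 19 described members that passed the filter on low values in liver, 7 rose and none fell (limma, adjusted p under 0.05 over 12654 genes), where 10% of all genes tested rose and 9.79% fell. The median log2 change of the 19 members was 1.05, and that of all genes tested was 0.0011. The 7 were the ligands Cxcl9, Cxcl10, Cxcl1, Cxcl14 and Ccl5 and the receptors Cx3cr1 and Ccr2. All of them but Cxcl9 passed the filter only with livers of 20 months, where they are high. The counts and the median of the members are therefore a description. Liver values are given for mice A, B, C and D at 5 months, then for samples 16, 17, 18, 19 and 74 at 20 months.

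Cxcl9 and Cxcl10, ligands of Cxcr3 that draw activated T cells and natural killer cells, both rose in liver. Cxcl11, the other ligand of that receptor, was not among the genes that matched. Cxcl9 (chr5:92321331-92328079, GRCm38) was 5.35, 3.49, 3.64 and 7.36 at 5 months and 11.1, 16.7, 36.6, 17.2 and 45.6 at 20 months. The lowest liver of 20 months lay above the highest of 5 months. The log2 change was 2.01 (SE 0.37, adjusted p = 0.00969), with p = 0.0159 in an exact two-sided permutation test over the 126 divisions of the 9 samples. Cxcl10 (chr5:92346638-92348889) was 3.25, 0.727, 1.5 and 2.40 at 5 months and 3.46, 7.21, 31.4, 5.57 and 69.3 at 20 months, and the ages again did not overlap, although the 20-month values spanned a wide range. Its log2 change was 2.32 (SE 0.71, adjusted p = 0.0432) and its exact p was 0.0238. Exons of Cxcl10 overlap those of Art3. Their receptor Cxcr3 did not pass the filter in liver, where it was 0.240 to 0.727 at 5 months and 0.568 to 1.85 at 20 months.

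The windows from 250 bases before to 50 bases after the start of Cxcl1, Cxcl2, Cxcl10 and Cxcl14 are shown. Those of Cxcl1, Cxcl2 and Cxcl10 were the only 3 of the described members with the NF-kB form defined below. They are therefore no test of that form. Cxcl14 had the smallest adjusted p of all members for a difference in age change between liver and muscle. Its window was the only one of a member with a GAS match. The windows of Cxcl9, Ccl3 and Ccl22 held no match to any form searched. The sequences are those of RefSeq for GRCm38.p6, read along the strand of the gene, at chr5:90890995-90891294 (plus strand), chr5:90903649-90903948 (plus), chr5:92348840-92349139 (minus) and chr13:56296502-56296801 (minus). Capitals mark matches on either strand to 1 NF-kB form (GGGA, any 2 bases and TTCC), to the core of the interferon-stimulated response element (GAAA, any 2 bases and GAAA), to the interferon-gamma activated site GAS (TTCNNNGAA) or to the E-box CACGTG, the core that Mlx binds with its partners.
Cxcl1: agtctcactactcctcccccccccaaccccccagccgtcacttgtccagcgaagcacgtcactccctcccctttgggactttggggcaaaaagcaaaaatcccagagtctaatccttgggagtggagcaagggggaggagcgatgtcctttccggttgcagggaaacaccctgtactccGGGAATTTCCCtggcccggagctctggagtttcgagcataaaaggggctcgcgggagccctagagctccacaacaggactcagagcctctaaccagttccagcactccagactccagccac
Cxcl2: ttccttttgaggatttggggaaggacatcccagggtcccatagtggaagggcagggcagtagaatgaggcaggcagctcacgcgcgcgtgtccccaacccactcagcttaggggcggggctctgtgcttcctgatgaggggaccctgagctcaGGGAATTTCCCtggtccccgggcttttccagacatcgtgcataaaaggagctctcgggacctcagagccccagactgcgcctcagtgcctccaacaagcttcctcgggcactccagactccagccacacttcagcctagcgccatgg
Cxcl10: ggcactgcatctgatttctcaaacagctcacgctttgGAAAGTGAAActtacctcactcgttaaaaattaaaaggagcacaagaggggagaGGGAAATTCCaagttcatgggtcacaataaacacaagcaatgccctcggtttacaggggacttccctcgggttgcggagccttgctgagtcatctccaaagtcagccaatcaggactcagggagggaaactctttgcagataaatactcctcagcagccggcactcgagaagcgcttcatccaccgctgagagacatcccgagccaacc
Cxcl14: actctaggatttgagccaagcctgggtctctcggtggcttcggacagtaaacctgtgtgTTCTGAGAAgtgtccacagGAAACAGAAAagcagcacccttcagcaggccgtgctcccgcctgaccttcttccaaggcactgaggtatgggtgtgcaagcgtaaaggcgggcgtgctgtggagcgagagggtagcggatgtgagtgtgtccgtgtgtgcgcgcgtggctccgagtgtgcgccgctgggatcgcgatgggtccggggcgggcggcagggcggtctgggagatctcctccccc

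Cxcl1 and Cxcl2 each held the NF-kB form, at 71 and 97 bases before the start, on both strands with the matches overlapping, and Cxcl10 held it at 159 bases before the start and the interferon core at 213. In Cxcl14 the capitals are a GAS match at 191 bases and an interferon core match at 172 bases before the RefSeq start. The whole Cxcl14 window (chr13:56296502-56296801, minus strand) lies inside the gene span used elsewhere here (chr13:56288643-56296811). By that span its matches lie within the gene and not upstream of it. Windows of 26 of the 36 described members were in the RefSeq table, as 29 windows. The NF-kB form was in 3 of the 29, against 1.47% of all 32851 windows, the interferon core in 3, against 3.44%, the GAS form in 1, against 8.30%, and the E-box in 1, that of Xcr1, against 7.15%. A match is a stretch of letters and not a measured binding site.

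Cxcl1 (chr5:90891245-90893121), a ligand of Cxcr2 that draws neutrophils, was 1.53, 0.509, 2.21 and 1.84 in liver at 5 months and 1.78, 7.41, 14.2, 7.33 and 41.9 at 20 months. The ages overlapped, with sample 16 below mice C and D. Its log2 change was 2.11 (SE 0.61, adjusted p = 0.0359), with an exact p of 0.0317. Cxcl2, its neighbour on chromosome 5, did not pass the filter in liver, at 0.191, 0.0727, 0 and 0.0800 and 0.153, 0.401, 1.48, 0.454 and 1.70 at the 2 ages, with 5.84% of its sequence words shared with Cxcl3. Cxcl14 (chr13:56288643-56296811) was 0.764, 0.655, 2.42 and 2.56 at 5 months and 4.43, 7.56, 7.42, 4.71 and 12.9 at 20 months, which did not overlap. The log2 change was 1.70 (SE 0.32, adjusted p = 0.0107), and the exact p of 0.00794 was the smallest that 4 against 5 samples allow.

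Among the CC ligands, Ccl5 (chr11:83525778-83530518), made by T and natural killer cells and also known as RANTES, was 0.955, 1.24, 1.14 and 1.04 in liver at 5 months and 3.10, 4.81, 19.5, 3.18 and 8.02 at 20 months. All 5 livers of 20 months were above all 4 of 5 months, and the log2 change was 1.77 (SE 0.41, adjusted p = 0.0172, exact p = 0.0159). Ccl2, the main monocyte ligand, was 0.291 to 1.08 at 5 months and 0.625 to 22.8 at 20 months, a log2 change of 1.64 (adjusted p = 0.104). Ccl9 and Ccl6, next to Cxcl12 in level, had log2 changes of 1.07 (adjusted p = 0.136) and 0.64 (adjusted p = 0.0911). Ccl9 was 29.5, 17.7, 48.8 and 50.7 at 5 months and 30.0, 53.1, 99.2, 57.8 and 207 at 20 months, and Ccl6 was 10.2, 18.2, 10.4 and 12.8 and 10.7, 25.2, 23.4, 20.0 and 25.9. Both overlapped between ages. Cxcl12, the highest in level, was 429, 296, 419 and 395 at 5 months and 389, 499, 569, 521 and 541 at 20 months, with a log2 change of 0.39 (adjusted p = 0.0863) that missed the threshold.

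The receptors called higher in liver, Cx3cr1 and Ccr2, are those of monocytes and macrophages. Cxcr3, Cxcr5, Ccr7 and Xcr1 did not pass the filter there and could not be called. Their means were 0.545, 0.303, 0.43 and 0.264 at 5 months and 1.22, 0.910, 1.15 and 1.26 at 20 months. Cx3cr1 (chr9:120048683-120068296), the receptor of fractalkine on patrolling monocytes, was 1.02, 0.291, 0.927 and 1.20 at 5 months and 2.14, 5.41, 11.7, 5.34 and 23.8 at 20 months. Those ranges did not overlap, and the log2 change was 2.19 (SE 0.49, adjusted p = 0.0153, exact p = 0.0159). Its ligand Cx3cl1 was 1.04 to 1.78 and 1.22 to 15.2 at the 2 ages, a log2 change of 0.91 (adjusted p = 0.210). Ccr2 (chr9:124101918-124109140) was 2.04, 0.436, 1.14 and 1.20 at 5 months and 1.83, 3.46, 11.3, 4.49 and 22.5 at 20 months, which overlapped through sample 16, with a log2 change of 1.77 (SE 0.53, adjusted p = 0.0393, exact p = 0.0317). Cxcl16, the ligand of Cxcr6, lay just outside the threshold with a log2 change of 0.90 (adjusted p = 0.0574). The other members tested in liver were Cxcr4, Ccl27a, Cxcl13, Ccl24 and Ccl25, with log2 changes from -0.38 in Cxcl13 to 0.34 in Ccl24, none of which passed. The other 17 described members did not pass the filter on low values in liver.

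The liver count also depended on which sample was left out. Without sample 74 the same 7 members passed, and without sample 16, the lowest in most members, 12 passed. Leaving out any of the 4 mice of 5 months, or sample 17 or 18, left 4 (Cxcl9, Cxcl14, Cx3cr1 and Ccl5), and leaving out sample 19 left those 4 and Cxcl10. Markers of several cell types also differed between ages in liver, where 10% of all genes tested rose and 9.79% fell. Macrophage genes rose in 3 of 8 tested, with a sum of 182 to 294 at 5 months and 212 to 725 at 20 months, T cell genes in 2 of 2 tested of 8, with 2.33 to 5.36 and 5.22 to 20.2, and B cell genes in 5 of 6 tested of 7, with 2.25 to 9.92 and 11.3 to 22. Fibroblast genes rose in 2 of 4, with 190 to 319 and 262 to 379, and genes of red blood cells in 3 of 3 tested of 4, with 486 to 611 and 732 to 966, which did not overlap. Endothelial genes fell in 1 of 4 (Kdr). Plasma cell genes rose in 1 of 3 tested of 5, but their mean sum was 51.3 at 5 months and 15.4 at 20 months. Of 2 natural killer cell genes tested, none passed in limma (2 had an unadjusted p under 0.05, and edgeR called 1 and DESeq2 2). None of the 3 neutrophil genes tested passed in limma (2 had an unadjusted p under 0.05, and edgeR called 1 and DESeq2 2), with sums of 5.06 to 10.8 and 8.82 to 31.9. No gene of the macrophage, T cell and B cell lists was at 0 in all livers of either age, and the part of all these cells in the members' changes was not tested.

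**Figure D2:**
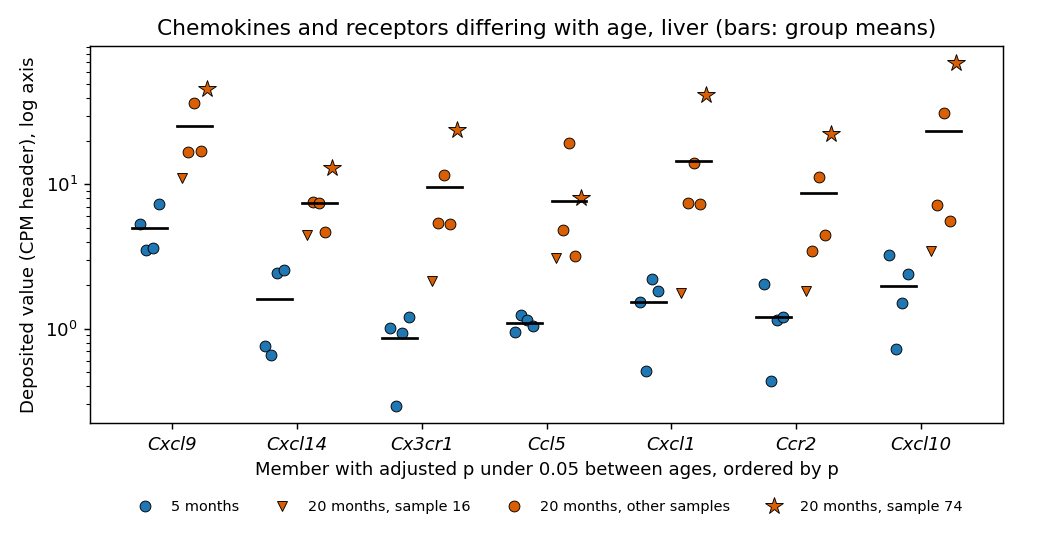
Normalised value (log axis) of the members that rose in liver, per sample at 5 months (4 mice) and 20 months (5 samples), with black bars at the group means and samples 74 and 16 marked. For Cxcl9, Cxcl14, Cx3cr1, Ccl5 and Cxcl10 the points of 20 months lie above all those of 5 months, and for Cxcl1 and Ccr2 they overlap.

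In omental adipose tissue the ligands Ccl7, Ccl2 and Ccl5 and the receptors Cxcr3, Cxcr5 and Cxcr6 were higher at 20 months, and Cxcl12 was lower. Of the 34 described members tested, 6 rose and 1 fell (limma over 14005 genes), where 9.75% of all genes tested rose and 9.35% fell. The median log2 change of the 34 members was 0.35 against 0.0072 over all genes tested. These figures too are a description, since some members, Cxcr5 among them, passed the filter only with tissues of 20 months, where they are high. Adipose values follow the order of mice A, B, C and D, then samples 36, 37, 38, 39 and 40.

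Ccl7 and Ccl2, neighbouring genes on chromosome 11 whose products draw Ccr2-bearing monocytes, rose without overlap. Ccl7 (chr11:82045712-82047525) was 3.19, 2.84, 4.11 and 4.16 at 5 months and 6.07, 11.4, 8.86, 9.26 and 7.77 at 20 months. Ccl2 (chr11:82035577-82037452) was 4.21, 2.03, 4.84 and 5.70 at 5 months and 6.63, 13.7, 8.77, 10.9 and 7.92 at 20 months. Neither overlapped between ages, and the log2 changes were 1.07 (SE 0.18, adjusted p = 0.0114) for Ccl7 and 1.05 (SE 0.26, adjusted p = 0.0293) for Ccl2, each with an exact p of 0.00794, the smallest possible. In 1 fit over all 27 samples Ccl2 no longer passed in adipose tissue, with an adjusted p of 0.163. Ccl5 was 5.90, 2.33, 3.52 and 1.86 at 5 months and 14.9, 5.06, 37.6, 6.96 and 21.5 at 20 months, and had a log2 change of 1.82 (SE 0.52, adjusted p = 0.0402, exact p = 0.0397). Sample 37 lay below mouse A, so the ages overlapped. Ccr2, the receptor of Ccl2 and Ccl7, had a log2 change of 0.64 (adjusted p = 0.128).

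The receptors Cxcr3, Cxcr6 and Cxcr5 rose as well. Cxcr3 (chrX:101731535-101734147), the receptor of Cxcl9 and Cxcl10 on activated T cells, was 2.36, 1.44, 2.19 and 1.31 at 5 months and 6.99, 2.30, 8.30, 5.06 and 8.81 at 20 months, with a log2 change of 1.29 (SE 0.31, adjusted p = 0.0278, exact p = 0.0238). The ages met at sample 37. Cxcr6 (chr9:123806477-123811754), found on tissue-resident T cells, was 3.09, 1.03, 3.12 and 2.01 at 5 months and 7.78, 2.18, 9.67, 6.61 and 8.57 at 20 months, with a log2 change of 1.21 (SE 0.36, adjusted p = 0.0459, exact p = 0.0317), and overlapped through the same sample. Cxcr5 (chr9:44511787-44526444), the B cell receptor for Cxcl13, was 1.5, 0.185, 0.995 and 0.145 at 5 months and 9.08, 1.05, 9.31, 2.23 and 14.7 at 20 months, with a log2 change of 1.99 (SE 0.58, adjusted p = 0.0434, exact p = 0.0476). Sample 37 was again the lowest and lay below mouse A. Exons of Cxcr5 overlap those of Bcl9l. The ligands of these receptors did not pass, with log2 changes of 1.04 (adjusted p = 0.0921) for Cxcl9, 0.13 (adjusted p = 0.806) for Cxcl10, 0.15 (adjusted p = 0.547) for Cxcl16 and -0.46 (adjusted p = 0.354) for Cxcl13.

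Cxcl12 (chr6:117168535-117181368) was the member that fell. It was 640, 387, 594 and 274 at 5 months and 258, 135, 124, 182 and 236 at 20 months. All 5 tissues of 20 months were below all 4 of 5 months, with a log2 change of -1.32 (SE 0.31, adjusted p = 0.0258, exact p = 0.00794). Its receptor Cxcr4 was 8.15 to 16 at 5 months and 15.2 to 23.1 at 20 months, a log2 change of 0.46 (adjusted p = 0.106).

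Ccl6, Ccl9 and Ccl21a, the highest in level over the 9 adipose samples, did not pass the test of age. Ccl6 was 216, 203, 364 and 267 at 5 months and 217, 526, 409, 263 and 186 at 20 months, a log2 change of 0.21 (adjusted p = 0.627). Ccl9 was 80.1, 82.7, 108 and 102 and 102, 315, 214, 184 and 115, a log2 change of 0.88 (adjusted p = 0.0669). Ccl21a was 87.9, 42.9, 91.8 and 106 and 79.4, 2.30, 59.2, 70.1 and 19.6, a log2 change of -1.40 (adjusted p = 0.238). Each of the 3 overlapped between ages, and Ccl21a spanned 2.30 to 79.4 at 20 months alone. Ccl28, a mucosal ligand of Ccr10 and Ccr3, was also uneven, at 0.929 to 22.3 at 5 months and 0.467 to 5.36 at 20 months, a log2 change of -1.76 (adjusted p = 0.0962). Ccl19, Cx3cl1 and Cx3cr1 had log2 changes of -0.76 (adjusted p = 0.159), -0.66 (adjusted p = 0.131) and 0.49 (adjusted p = 0.171). Of the remaining adipose members, Ccl8, a CC ligand on the same chromosome as Ccl2, was 4.69 to 23.3 and 13.9 to 68.0 at the 2 ages. Its log2 change was 0.99 (adjusted p = 0.166). Ccr7, the receptor that leads T cells and dendritic cells to lymph nodes, had a log2 change of 0.74 (adjusted p = 0.119). The changes of Ccl3, Ccl12, Ccl22, Ccl24, Ccl27a, Cxcl1 and Cxcl14 lay between -0.20 in Ccl12 and 0.37 in Cxcl14, and none passed. Ccl4 and Ccl25 did not pass the filter there. Cxcl2, at 4.56, 3.40, 2.39 and 1.78 and 1.33, 2.49, 1.10, 1.27 and 0.836, had a log2 change of -0.73 (adjusted p = 0.0632).

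The adipose count changed with the sample left out. Leaving out mouse A, mouse B, sample 38 or sample 39 left 1 call, Ccl7, leaving out sample 40 left 2, Ccl7 and Cxcl12, and the other 4 omissions left 5 to 8. Ccl7 was the 1 member called in all 9. Beside the marker counts that follow, 9.75% of all genes tested rose in adipose tissue and 9.35% fell. B cell genes rose in 7 of 7, with a sum of 6.61 to 25.7 at 5 months and 21.4 to 220 at 20 months. T cell genes rose in 2 of 8, with 8.87 to 20.2 and 9.50 to 90.0, and macrophage genes in 2 of 8, with 693 to 1588 and 1019 to 5320. Endothelial genes fell in 2 of 4, with 551 to 1250 and 338 to 654, and mesothelial genes in 2 of 4, with 53.9 to 117 and 29.9 to 62.6. None of the 4 fibroblast genes passed in limma, with 1474 to 1789 and 996 to 1402 (2 had an unadjusted p under 0.05, and edgeR called 1 and DESeq2 2). No gene of the macrophage, T cell and B cell lists was at 0 in every adipose sample of an age, and the part of these cells in the members' changes was not tested.

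**Figure D3:**
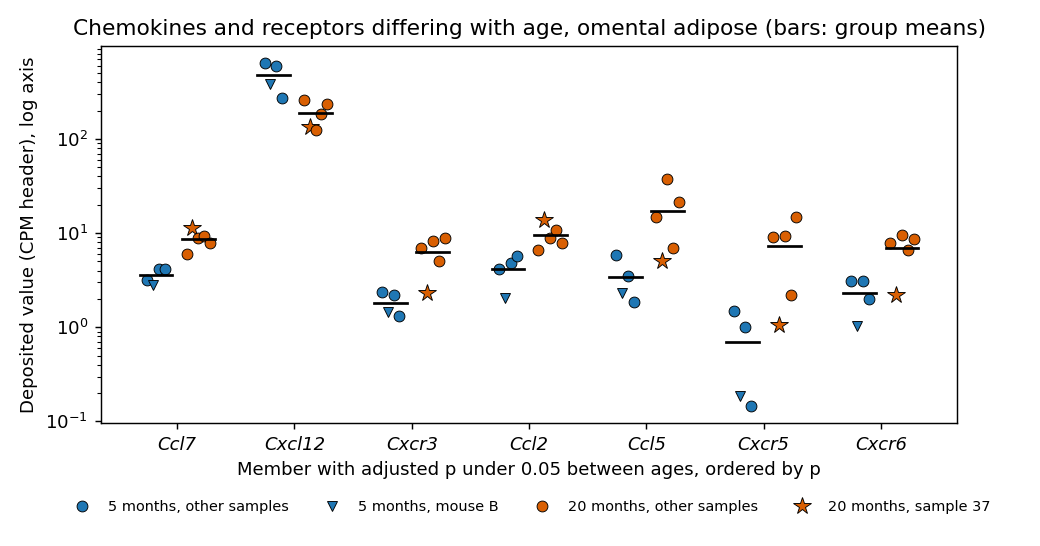
Normalised value (log axis) of the members that differed between ages in omental adipose tissue, per sample at 5 months (4 mice) and 20 months (5 samples), with black bars at the group means and sample 37 and mouse B marked. Ccl7 and Ccl2 lie higher and Cxcl12 lower at 20 months with no overlap, and sample 37 is the lowest of its age for Cxcr3, Cxcr5 and Cxcr6.

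In skeletal muscle more members fell than rose. Of the 18 described members tested, 1 rose and 5 fell (limma over 12720 genes), where 9.13% of all genes tested rose and 10.1% fell. The median log2 change of the 18 members was -0.14, and that of all genes tested was 0.017. These figures are again a description. Some members, Cxcl13, Ccl2 and Ccl7 among them, passed the filter only with muscles of 5 months, where they are high. Muscle values follow the order of mice A, B, C and D, then samples 56 to 60.

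Cxcl13 (chr5:95956939-95961068), the B cell ligand of lymphoid follicles, was 5.38, 15.6, 4.15 and 5.50 at 5 months and 2.09, 1.46, 0.434, 2.35 and 0.713 at 20 months. It fell with no overlap between ages, by a log2 change of -1.75 (SE 0.35, adjusted p = 0.00822) and an exact p of 0.00794. The macrophage ligands Ccl6 and Ccl9 fell with it. Ccl6 (chr11:83587886-83593087) was 21.6, 45.5, 16.8 and 20.1 at 5 months and 12.8, 7.25, 8.25, 11.5 and 7.27 at 20 months, a log2 change of -1.30 (SE 0.26, adjusted p = 0.00890). Ccl9 (chr11:83572917-83578636) was 11.4, 29.5, 7.20 and 11.2 at 5 months and 5.54, 4.25, 2.68, 6.76 and 3.14 at 20 months, a log2 change of -1.41 (SE 0.34, adjusted p = 0.0170). Neither overlapped between ages, and the exact p of each was 0.00794.

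The monocyte ligands Ccl2 and Ccl7, which rose in adipose tissue, were lower in muscle at 20 months, with 1 mouse far above the rest at 5 months. Ccl2 was 5.07, 22.2, 1.33 and 3.41 at 5 months and 2.35, 0.598, 0.289, 0.808 and 0.641 at 20 months. Ccl7 was 5.76, 19.8, 0.939 and 2.72 at 5 months and 0.456, 1.26, 0.651, 1.10 and 0.285 at 20 months. Mouse B had the highest value of both and the ages overlapped. The log2 changes were -1.75 (SE 0.53, adjusted p = 0.0388) for Ccl2 and -1.72 (SE 0.52, adjusted p = 0.0405) for Ccl7, each with an exact p of 0.0238. Without mouse B they were -1.12 (adjusted p = 0.0498) and -1.09 (adjusted p = 0.0561), so that the fall of Ccl7 no longer passed.

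Cx3cl1 (chr8:94772180-94782427) was the member that rose. It was 3.46, 2.18, 3.52 and 3.97 at 5 months and 4.96, 6.32, 6.29, 7.35 and 6.49 at 20 months, which did not overlap, and the log2 change was 0.78 (SE 0.16, adjusted p = 0.00956, exact p = 0.00794). In 1 fit over all 27 samples it no longer passed, with an adjusted p of 0.161. Its receptor Cx3cr1 did not pass the filter in muscle, at 0.235 to 1.11 and 0.332 to 0.796. The 3 most abundant members overlapped between ages. Cxcl14 was 90.1, 122, 71.5 and 67.9 at 5 months and 75.2, 42.3, 55.0, 89.9 and 60.6 at 20 months, a log2 change of -0.45 (adjusted p = 0.158). Cxcl12 was 136, 154, 130 and 142 and 111, 165, 144, 194 and 144, a log2 change of 0.089 (adjusted p = 0.671), and Ccl11 was 20.7, 20.4, 15.1 and 10.2 and 18.1, 10.2, 10.1, 19.6 and 15.1, a log2 change of -0.17 (adjusted p = 0.625). Ccl27a, at 1.69 to 5.09 and 4.56 to 6.69, had a log2 change of 0.67 (adjusted p = 0.0540). The other 8 tested in muscle, Cxcr4, Ccl24, Ccl25, Ccr2, Cxcl16, Ccl21a, Ccr1 and Ccl8, had changes from -0.23 in Ccr2 to 0.43 in Ccl21a, and none passed.

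Leaving out 1 muscle at a time left 4 to 7 calls. The 4 found in all 9 omissions were Cxcl13, Ccl6, Cx3cl1 and Ccl9, and the count was 4 without mouse A or without sample 57, 58, 59 or 60. Beside the marker counts that follow, 9.13% of all genes tested rose in muscle and 10.1% fell. Macrophage genes fell in 3 of 7 tested of 8, with a sum of 128 to 210 at 5 months and 74.6 to 146 at 20 months. Fibroblast genes fell in 3 of 4, with 771 to 1054 and 403 to 743. No macrophage gene was at 0 in every muscle of an age, whereas no T cell or B cell gene passed the filter in muscle. Their part in the members' changes was not tested.

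**Figure D4:**
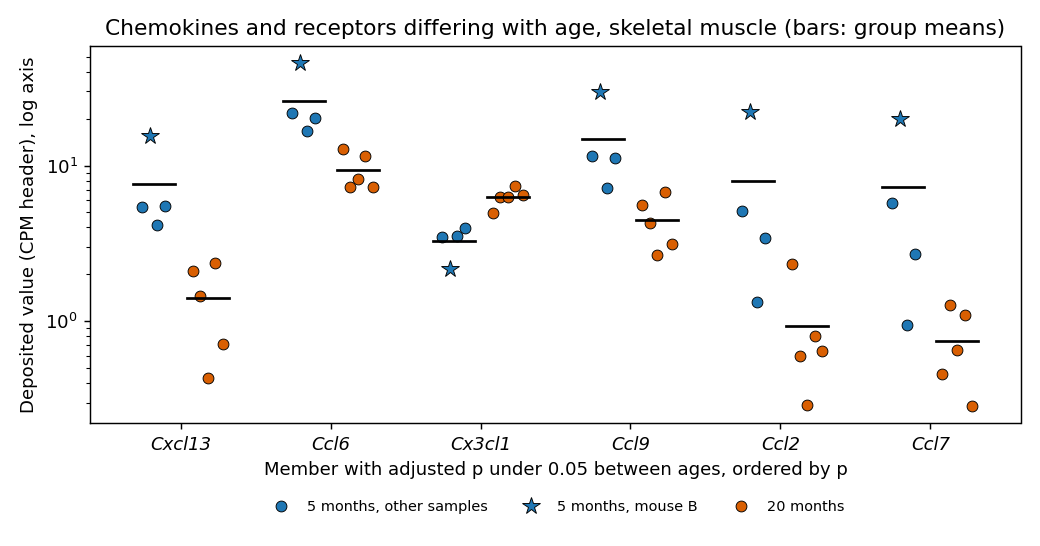
Normalised value (log axis) of the members that differed between ages in skeletal muscle, per sample at 5 months (4 mice) and 20 months (5 samples), with black bars at the group means and mouse B marked. Cxcl13, Ccl6 and Ccl9 are lower and Cx3cl1 higher at 20 months without overlap, and mouse B is the top point of Ccl2 and Ccl7 at 5 months.

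Whether the age changes differed between tissues was tested as an interaction in 1 fit over all 27 samples and 15572 genes, in which all 36 described members entered, also those that had not passed the filter in 1 or both of the tissues compared. Liver and muscle differed in 12 members (17.5% of all genes tested), adipose tissue and muscle in 8 (14.7%) and liver and adipose tissue in 4 (15.6%). These counts too are a description. Some members, Ccl4 and Cxcr5 among them, passed the filter only with samples of 20 months, where they are high. With the mouse as a block, since the labels tie the tissues of 5 months to the same mice, the counts were 13, 9 and 7.

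All 12 differences between liver and muscle were positive as liver minus muscle. They were in the CXCR3 ligands Cxcl9 and Cxcl10, the neutrophil ligands Cxcl1 and Cxcl2, Cxcl14, the CC ligands Ccl2, Ccl4, Ccl6, Ccl7 and Ccl9, and the receptors Cx3cr1 and Ccr2. The smallest adjusted p were those of Cxcl14, with a difference of log2 changes (liver minus muscle) of 2.14 (SE 0.47, adjusted p = 0.00319), and of Ccl6, with 1.94 (SE 0.43, adjusted p = 0.00359). The largest difference was in Ccl2, 3.39 (SE 0.84, adjusted p = 0.00745). Cxcl1 differed by 2.93 (SE 0.69, adjusted p = 0.00529) and Cxcl10 by 2.63 (SE 0.79, adjusted p = 0.0233). Ccl4 had no read in any muscle of 20 months, and its difference depends on the pseudocount. The single block call added to the 12 was Ccl5, with an adjusted p of 0.0467 with the block and a difference of 1.66 (SE 0.60, adjusted p = 0.0555) without it.

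Adipose tissue and muscle moved apart in Ccl7, with a difference (adipose minus muscle) of 2.79 (SE 0.55, adjusted p = 0.00210), in Ccl2, with 2.80 (SE 0.84, adjusted p = 0.0262), in Ccl9, with 2.28 (SE 0.61, adjusted p = 0.0150), and in Ccl6, with 1.51 (SE 0.43, adjusted p = 0.0202). The lymphocyte receptors Cxcr3 and Cxcr5 differed by 1.31 and 1.91, while Cxcl12 and Ccl27a went the other way, with -1.40 (SE 0.32, adjusted p = 0.00539) and -0.82 (SE 0.26, adjusted p = 0.0356). Without the muscle of mouse B the count was 5. Between liver and adipose tissue the smallest adjusted p were those of Cxcl12, with a difference of 1.71 (SE 0.32, adjusted p = 0.00101) as liver minus adipose tissue, and of Cxcl2, with 1.41 (SE 0.35, adjusted p = 0.00868). Cxcl2 had not been tested in liver for its low values and missed the threshold in adipose tissue, and its difference passed at every setting tried but ran from 1.39 with median-of-ratios scaling to 4.35 in DESeq2 on recovered reads, so its size is not settled. Cx3cr1 differed by 1.70 (SE 0.52, adjusted p = 0.0280) and Ccl19, a ligand of Ccr7, by 1.10 (SE 0.35, adjusted p = 0.0324). Ccl19 shared 52.0% of its sequence words with other genes. With the block Cx3cl1, Cxcl14 and Ccl28 were added, at adjusted p of 0.0440, 0.0453 and 0.0495. This count moved with the livers left out, to 2 without mouse B or sample 18 and to 7 or 8 without sample 19 or 16.

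**Figure D5:**
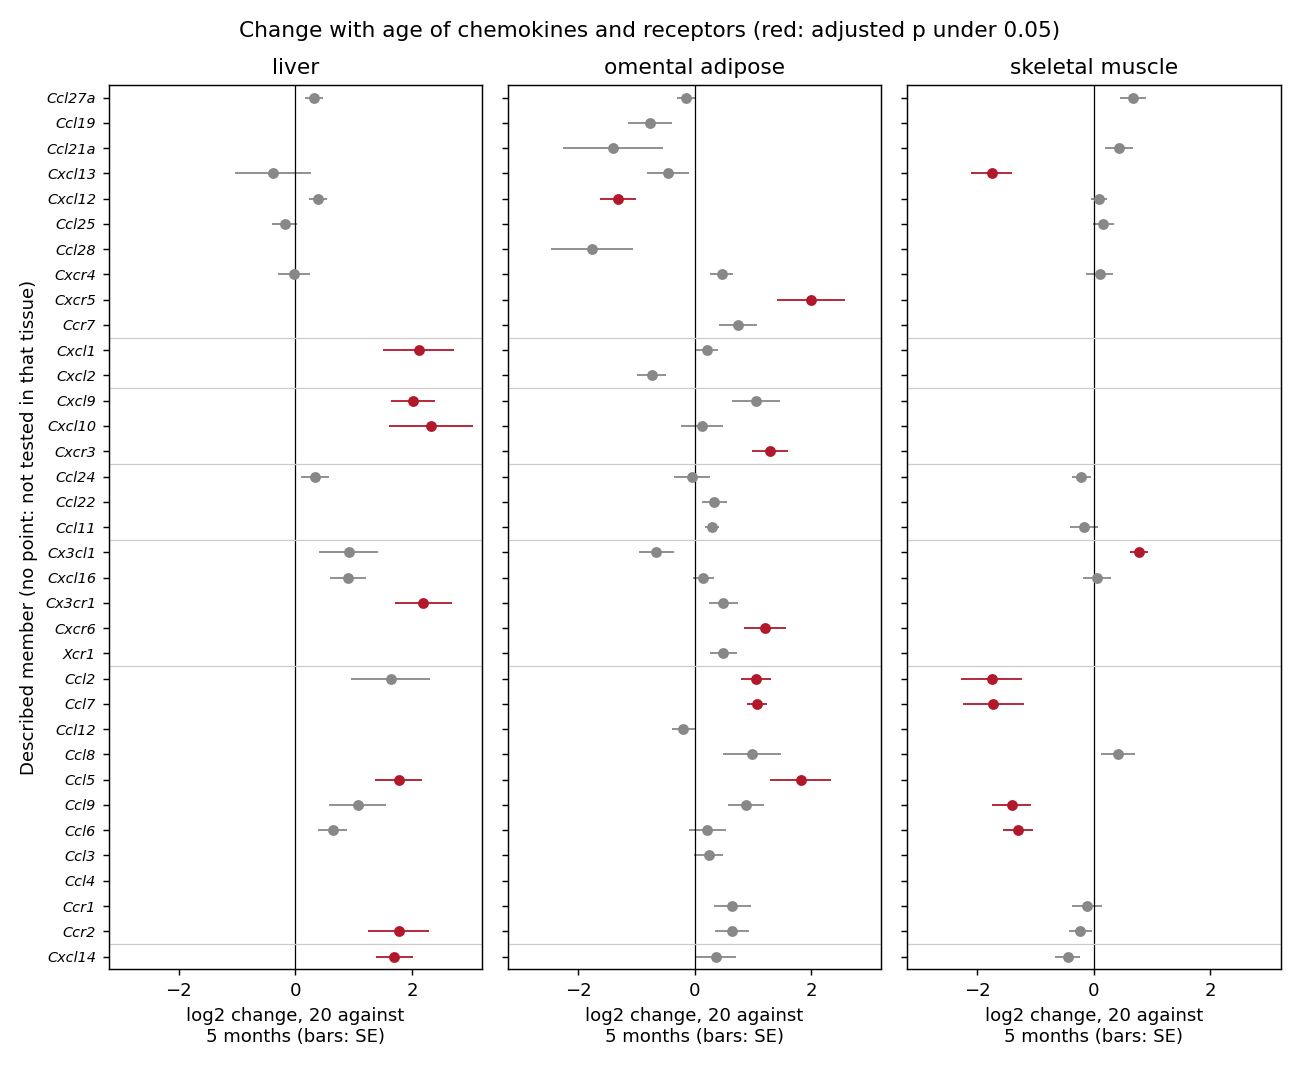
Log2 change from 5 to 20 months (points, with bars of 1 SE) of 35 of the 36 described members in liver, adipose tissue and muscle, in red where the adjusted p was under 0.05. In liver the red points lie right of 0, in adipose tissue all but Cxcl12 do, and in muscle all but Cx3cl1 lie left of it.

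Several members lie side by side in the genome. On chromosome 11, Ccl2, Ccl7 and Ccl11 lie between 82035577 and 82062955. Ccl2 and Ccl7 rose in adipose tissue and fell in muscle, while Ccl11 had log2 changes of 0.30 (adjusted p = 0.106) and -0.17 (adjusted p = 0.625). In a second group on that chromosome, Ccl5 (chr11:83525778-83530518), Ccl9 and Ccl6 lie in that order. Ccl5 rose in liver and adipose tissue, Ccl9 and Ccl6 fell in muscle, and no member of the group passed in all 3 tissues. Receptor genes Cxcr6, Xcr1, Ccr1 and Ccr2 lie together on chromosome 9, from 123806477 to 124109140. Of these Ccr2 passed in liver and Cxcr6 in adipose tissue. Ccr1 and Xcr1 had log2 changes of 0.64 (adjusted p = 0.157) and 0.49 (adjusted p = 0.130) in adipose tissue. Cxcl9 and Cxcl10, neighbours on chromosome 5, both rose in liver.

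Genes that act with the chemokines were read from lists of their own. Over all genes tested, 10% rose and 9.79% fell in liver. The shares were 9.75% and 9.35% in adipose tissue and 9.13% and 10.1% in muscle. The lists are short, and their counts are a description. Of 11 signalling genes that act behind chemokine receptors, 3 rose in liver, namely Rac2, a small GTPase of white blood cells, by 1.56 (adjusted p = 0.00866), its activator Dock2, by 1.09 (adjusted p = 0.0344), and the G protein subunit Gnai2, by 0.70 (adjusted p = 0.00775). In adipose tissue 5 of 11 rose, among them Rac2 by 2.08 (adjusted p = 0.0144), Dock2 by 1.96 (adjusted p = 0.00948) and Pik3cg, the kinase downstream of Gi, by 1.37 (adjusted p = 0.0123). In muscle none of 10 tested passed in limma (1 had an unadjusted p under 0.05, and edgeR and DESeq2 called 1 each). Of the genes of interferon-gamma signalling, which switches on Cxcl9 and Cxcl10, 4 of the 9 tested rose in liver, among them Irf1, Socs1 and Ciita, and 1 fell (Jak1). Irf1 changed by 1.14 (adjusted p = 0.0456) and Ciita by 1.37 (adjusted p = 0.0333). Adipose tissue had 2 of 9 higher (Irf8 and Ciita), and in muscle 1 of 7 rose and 3 fell (Ifngr1, Jak1 and Jak2).

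Of the genes of NF-kB signalling, 2 of 10 rose in liver, against 10% of all genes tested. They were the cytokine Il1b, by 0.86 (adjusted p = 0.0392), and the lymphotoxin Ltb, by 1.52 (adjusted p = 0.0427). In adipose tissue 1 of 11 rose (Ltb), near the 9.75% of all genes tested there. In muscle 3 of 8 fell (Tnfrsf1a, Il1r1 and Rela), against 10.1% of all genes tested. Of the scavenging receptors and other chemoattractants, Rarres2, the gene of the attractant chemerin, rose in liver by 0.85 (adjusted p = 0.0252) and in adipose tissue by 1.16 (adjusted p = 0.0269), where the platelet ligands Pf4 and Ppbp fell by 0.76 and 1.17 on the log2 scale. In muscle Ccrl2, a chemerin-binding receptor, rose by 0.65 (adjusted p = 0.0352).

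The 19 genes that matched but were not described reached 1 in at most 3 of the 27 samples. Their highest values were 6.11 for Ccl20, a ligand of Ccr6, in liver sample 74, 3.71 for Cxcl5 and 3.21 for Ccl21b. Ccl26 and Cxcl15 had no read in any sample, which allows up to 0.242, the value of 3 reads in the sample where a read weighed most. Both limits cover counting error only. Just outside the threshold were Cxcr2, the receptor of Cxcl1 and Cxcl2, with 3 samples at 1 or more, and Ccl20, Ccr3 and Ccr6 with 2. Just inside were Ccl4 with 4 samples and Ccl19 and Ccl28 with 6 each.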

How the data were processed

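Poly(A) RNA of 27 *Mlx*KO tissues was sequenced with a directional kit, and per the submitters' processing notes reads were mapped to mouse genome GRCm38.p6 (mm10). Whether strand was used in counting is not given in the sources used here. The authors deposited 1 signal value per gene and sample, headed CPM, which are read counts scaled by a factor per sample. The deposited columns sum to 559419 to 1395315 and differ between samples, so they were treated as scaled reads and not as CPM. Dividing by the value of 1 read gave whole reads within 0.1 read for 100% of values. No column was left unused.

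Groups were those of the labels. The members and lists were chosen with earlier results of these data known. Genes at 1 or above in 4 or more samples of a fit were tested on log2(value + 1) with limma 3.58.1 (R 4.3.3) with a variance trend and Benjamini-Hochberg adjustment over all genes tested, with adjusted p under 0.05 as the threshold. Fold changes are on that scale, which understates the change of low genes. Age was tested within each tissue, the difference in age change over all 27 samples, and tissues over the 12 samples of 5 months. The 4 mice that gave 3 tissues at 5 months per the labels are a block in the alternative fits (mean correlation of the tissues' deviations 0.14 over 12 pairs of the same mouse, -0.048 over 36 of different mice). Single genes were also tested by exact two-sided permutation. Members called between ages (at most 10 a tissue), the 3 highest per kilobase in each tissue and the 2 with the smallest adjusted p for each pair of tissues are given by sample. edgeR 4.0.16 and DESeq2 1.42.0 on recovered reads, other pseudocounts, filters, scalings and weights, and each sample left out were alternatives. All replicate pairs differed by more than counting noise. Values of 1 described member and 1 listed gene are not reported here, though both stay in the counts. Exon lengths came from GENCODE M21 and promoter windows from RefSeq. The tests were also run on simulated reads with known changes, drawn with a common mean per gene and a fixed spread. Such reads are simpler than these data, so error rates here were not measured.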

Additional observations from a re-analysis of the deposited data

Results flagged for a closer look

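3 of 86 groups tested held a sample far from the others, where chance gives about 1 in 20. Cxcl9 in adipose tissue was 4.06 in mouse B against 10.1 in the next lowest mouse of 5 months. Ccr2 in muscle was 5.44 in sample 59 against 3.21 in the next highest sample of 20 months. Cxcr6 in adipose tissue was 2.18 in sample 37 against 6.61 in the next lowest sample of 20 months.

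The age change of the following members differed between tissues in the interaction test, as differences of log2 changes. As liver minus adipose tissue, Cxcl12 differed by 1.71, Cxcl2 by 1.41, Cx3cr1 by 1.70 and Ccl19 by 1.10. As liver minus muscle, the ligands Cxcl14, Ccl6, Cxcl1, Ccl7, Ccl2 and Ccl9 differed by 2.14, 1.94, 2.93, 2.26, 3.39 and 2.47, the ligands Cxcl10, Cxcl9, Cxcl2 and Ccl4 by 2.63, 1.70, 1.05 and 0.84, and the receptors Cx3cr1 and Ccr2 by 2.21 and 2.0. As adipose tissue minus muscle, Ccl7 differed by 2.79, Ccl2 by 2.80, Ccl9 by 2.28, Ccl6 by 1.51, Cxcr5 by 1.91 and Cxcr3 by 1.31, and with the opposite sign Cxcl12 by -1.40 and Ccl27a by -0.82.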

How the results depend on the processing

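Counts of members called between ages moved by more than 1.5 times under some settings. In liver (7) DESeq2 on recovered reads gave 13, weighting samples by their variability 11, and leaving out 1 sample 4 to 12. In adipose tissue (7) no filter on low values gave 2, DESeq2 12, weighting 17, 1 fit over all 27 samples 13, and leaving out 1 sample 1 to 8. Muscle (6) gave 4 to 7 with 1 sample left out. For the difference in age change, liver against adipose tissue (4) gave 7 in edgeR, 10 in DESeq2 and 2 to 8 with 1 sample left out, adipose tissue against muscle (8) gave 5 to 10, and liver against muscle (12) gave 8 to 17. With the mouse as a replicate block these counts were 7, 9 and 13, and for tissues at 5 months the block gave 26 for liver against adipose tissue in place of 25 and changed no other count of calls.

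Of 488 values of named members under the other settings, 449 kept their direction and side of the threshold, 16 lost and 20 gained a call, and 3 reversed. Of 504 with 1 sample left out, 425 kept both, 70 lost and 5 gained a call, and 4 reversed. The reversals were in values that had not passed. With weighting, the log2 change of Cxcl13 in liver was 0.63, of Cxcl1 in adipose tissue -0.11 and of Cxcl10 in adipose tissue -0.39. With 1 sample left out, Cxcl13 in liver ran from -0.87 to 0.029 (without sample 74), Cxcl10 in adipose tissue from -0.12 (without mouse B) through -0.053 (without sample 40) to 0.31, and Cxcl12 in muscle from -0.0065 (without sample 59) to 0.19. The cause was not tested. A read was worth 0.0234 to 0.0806, so that members under a value of about 0.242, or 3 reads in the shallowest scale, could not be told from 0. With a threshold of 0.5 or 2 in place of 1, 42 or 32 members would be described.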
